A study of Homo sapiens with 4 samples.

Results

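Mature miRNAs from 3 hairpins, miR-31, miR-126 and miR-335, which are described as suppressors of breast cancer metastasis, were followed in extracellular vesicles (EVs). The members were chosen by name: hsa-miR-31-5p, hsa-miR-126-3p, hsa-miR-126-5p, hsa-miR-335-5p and hsa-miR-335-3p, 5 of the 1619 mature miRNAs listed in either table of read counts and 5 of the 539 listed in both. The other strand of the miR-31 hairpin, hsa-miR-31-3p, was listed in neither table. EVs came from MDA-MB-231, an established triple-negative breast cancer line labelled as wild type and grown in DMEM with 10% fetal bovine serum. Near confluence the medium was changed for 12 h to EV-free DMEM (231 EV) or to glucose-free medium (231 -G EV), and EVs were then pelleted at 110000 g for 70 min. Each group had 2 libraries. The labels also tie the replicate number to the library preparation. In the libraries numbered 1 (pair 1), modified ends and bases of the RNA were first repaired and small RNAs of 14 to 40 nt were selected, whereas those numbered 2 (pair 2) used the NEBNext small RNA kit. Preparation and anything else that set the numbers apart cannot be told apart, nothing in the labels says that the libraries came from separate cultures, and the 4 libraries came from 1 cell line.

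A mature miRNA is a short RNA cut from one strand, or arm, of a hairpin, and its seed near the 5′ end pairs with target mRNAs. miR-31 has been described as lost in metastatic breast cancer lines and as a regulator of RHOA, ITGA5 and RDX, which act in cell motility and adhesion. miR-126 is enriched in endothelial cells, is transcribed with EGFL7, a secreted factor of blood vessels, and has been linked to the recruitment of endothelial cells by tumours. miR-335 lies in the imprinted gene MEST and represses SOX4, a transcription factor, and TNC, the matrix protein tenascin C. Loss of miR-335 and miR-126 was described in derivatives of this same cell line selected for metastasis.

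The 5 mature sequences are shown because their seeds set each of them apart from the other human miRNAs. They are taken from RefSeq (GRCh38.p14), are written 5′ to 3′, and carry the seed, bases 2 to 8, in capitals.
hsa-miR-31-5p: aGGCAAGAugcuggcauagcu
hsa-miR-126-3p: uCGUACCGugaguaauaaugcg
hsa-miR-126-5p: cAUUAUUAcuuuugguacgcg
hsa-miR-335-5p: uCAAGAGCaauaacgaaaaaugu
hsa-miR-335-3p: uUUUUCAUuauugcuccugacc
Of the 2370 human mature miRNAs in the RefSeq table, 0 others held the seed of any of the 5. The closest other mature sequence was 7 base changes, insertions or deletions away for miR-31-5p, miR-126-3p and miR-335-3p, and 8 away for miR-126-5p and miR-335-5p. Lengths ran from 21 to 23 bases. The GC content was 52.4% in miR-31-5p, 45.5% in miR-126-3p, 38.1% in miR-126-5p, 36.4% in miR-335-3p and 30.4% in miR-335-5p.

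All 3 hairpins lie in introns. MIR31 is at chr9:21512115-21512185 on the minus strand, in intron 1 of the 1 annotated transcript that spans it, from the long non-coding RNA gene MIR31HG. MIR126 is at chr9:136670602-136670686 on the plus strand, inside EGFL7, and MIR335 is at chr7:130496111-130496204 on the plus strand, inside MEST. Of the transcripts that span them, 5 of EGFL7 and 13 of MEST, 0 had an exon there.

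The libraries differed widely in depth and make-up, and these values bear on every comparison below. In pair 1 the 231 EV library held 18397 reads and the 231 -G EV library 15597, against 224966 and 170894 in pair 2. A single read was worth 54.4 and 64.1 CPM, the count over the library total times 1000000, in pair 1, and 4.45 and 5.85 CPM in pair 2. A count of 0 therefore allowed a level of up to 163 and 192 CPM in pair 1, taking 3 reads as the limit. In 231 EV of pair 1, hsa-miR-182-5p alone took 51.0% of the reads, against 2.73% in 231 -G EV, and 0.254% and 0.250% in pair 2. hsa-miR-16-5p, used below as another scale, had 70 reads in 231 EV and 40 in 231 -G EV of pair 1. In pair 2 it had 15834 and 18955. Its share of the reads was thus lower in 231 -G EV in pair 1 and higher in pair 2, so it is not a fixed reference. The 5 miRNAs typical of MDA-MB-231 (miR-21-5p, miR-29a-3p, miR-100-5p, miR-221-3p and miR-222-3p) were detected in all 4 libraries, with summed shares of 2.14% and 3.10% in pair 1 and 40.6% and 38.0% in pair 2. The 5 epithelial miRNAs of the miR-200 family, low in this line, also had reads in all 4 libraries, with summed shares from 0.0187% to 0.526%.

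miR-126 was the most abundant of the 3 hairpins in every library, and miR-31 rested on a few reads. Together the 5 miRNAs took 0.152% of the 231 EV reads and 0.391% of the 231 -G EV reads of pair 1, and in pair 2 their shares were 1.06% and 0.587%.

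In pair 1 miR-31-5p had 4 reads in 231 EV and 1 read in 231 -G EV, and in pair 2 it had 3 and 1. These counts correspond to 217 and 64.1 CPM in pair 1 and to 13.3 and 5.85 CPM in pair 2. It was thus detected in 4 of 4 libraries, at no more than 4 reads in any of them. Of the miRNAs detected, 69.6% had fewer reads in 231 EV of pair 1 and 33.0% in 231 EV of pair 2, while in both 231 -G EV libraries it stood at the minimum of 1 read.

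miR-126-3p, the strand with the most reads, had 22 reads in 231 EV and 57 in 231 -G EV of pair 1, or 1196 CPM (95% Wilson interval 790 to 1810) and 3655 CPM (2822 to 4732). In pair 2 it had 1582 and 589 reads, or 7032 CPM (6695 to 7386) and 3447 CPM (3180 to 3736). The 2 libraries of 231 -G EV lay within each other's intervals, whereas those of 231 EV were the lowest and the highest of the 4, so that the groups overlapped. It ranked between 19 and 45 among the 453 to 531 miRNAs detected in a library.

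miR-126-5p, the other strand of that hairpin, had 2 reads in each library of pair 1, or 109 and 128 CPM. In pair 2 it had 690 reads in 231 EV and 278 in 231 -G EV, or 3067 CPM (2847 to 3304) and 1627 CPM (1447 to 1829). Both libraries of pair 2 lay above both libraries of pair 1, and the groups overlapped.

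miR-335-5p, the strand through which miR-335 represses SOX4 and TNC, had 0 reads in 231 EV and 1 read in 231 -G EV of pair 1. In pair 2 it had 103 and 117 reads, or 458 CPM (378 to 555) and 685 CPM (571 to 820). miR-335-3p, its partner strand, had 0 reads in both libraries of pair 1, and 16 and 18 reads, or 71.1 and 105 CPM, in pair 2. The 0 reads in pair 1 allow levels of up to 163 and 192 CPM, above both of the latter levels, so a difference of miR-335-3p between the pairs was not detectable at that depth.

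**Figure D1:**
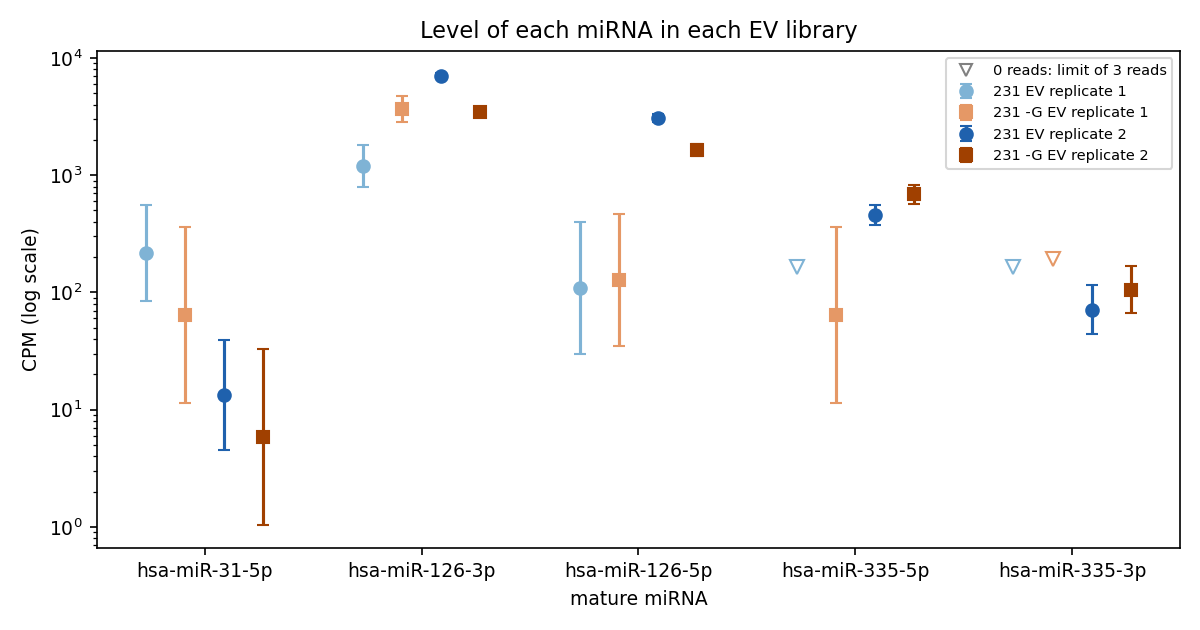
Level of each miRNA in CPM (log axis) in each of the 4 libraries, with circles for 231 EV, squares for 231 -G EV, light colours for replicate 1, dark colours for replicate 2 and bars for 95% Wilson intervals; open triangles mark the level that 3 reads would give where 0 were counted. miR-126-3p lies between 1196 and 7032 CPM, and miR-31-5p between 5.85 and 217 CPM with wide intervals.

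In both libraries of pair 2 the order of levels was miR-126-3p, miR-126-5p, miR-335-5p, miR-335-3p and miR-31-5p, with no overlap between the intervals of neighbours. The values carry no length term, and the 5 miRNAs are of nearly the same length. In pair 1 miR-126-3p lay above the rest, and the intervals of miR-31-5p and miR-126-5p overlapped in both libraries. In pair 1 the single read of miR-335-5p gave an interval, 11.3 to 363 CPM, that overlapped with both.

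The comparison of 231 -G EV with 231 EV asked whether glucose starvation altered the level of these miRNAs in EVs. Across both pairs no difference was found for any of the 5. The fitted log2 differences, 231 -G EV over 231 EV, were -1.40 (SE 2.16) for miR-31-5p, 0.23 (SE 0.98) for miR-126-3p, -0.60 (SE 1.13) for miR-126-5p, 0.88 (SE 1.33) for miR-335-5p and 0.55 (SE 1.93) for miR-335-3p. The adjusted p was 0.999 for each (edgeR quasi-likelihood test with the replicate number as a block, Benjamini-Hochberg over 384 miRNAs). To be called, a miRNA had to differ by more than 1 on the log2 scale with an adjusted p below 0.05. Over the 384 miRNAs tested, 0 (0%) were called and 5 had an unadjusted p under 0.05. The median log2 difference was 0.23 over the 5 and 0.20 over all, and the latter became -0.14 both with TMM scaling and with library totals that exclude hsa-miR-182-5p. The sign for miR-126-3p also turned with these scalings, to -0.24 and -0.26. The SEs, 0.98 or more on the log2 scale with 2 libraries a group, leave room for changes in either direction.

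Read counts within a pair gave a sharper view of each pair, but such tests compare 2 libraries and not the media. They are Fisher's exact tests, two-sided, adjusted by Benjamini-Hochberg over all miRNAs with a read in the pair, with exact conditional intervals of the ratio 231 -G EV over 231 EV. Called higher in pair 1 were 53 of 670 miRNAs (7.91%). In pair 2, 61 of 618 (9.87%) were called higher and 54 (8.74%) lower. These counts depended on the scaling. In pair 1 the 53 higher and 12 lower became 18 and 34 when the totals excluded hsa-miR-182-5p, and in pair 2 they became 11 higher and 131 lower relative to hsa-miR-16-5p. Of the members, 1 of the 4 with reads in pair 1 was called higher, and in pair 2, 1 of 5 was called higher and 2 of 5 lower.

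miR-126-3p moved in opposite directions in the 2 pairs. In pair 1 its level in 231 -G EV was 3.06 times that in 231 EV (95% interval 1.84 to 5.25, adjusted p = 7.21e-05, Fisher's exact test), and in pair 2 it was 0.490 times (0.445 to 0.539, adjusted p = 1.48e-52, Fisher's exact test). The ratio in pair 1 was 6.24 times the ratio in pair 2 (95% interval 3.78 to 10.3, log-normal, counting error only). The rise in pair 1 was not called once the totals excluded hsa-miR-182-5p, with a ratio of 1.54 (0.927 to 2.65, adjusted p = 0.604, Fisher's exact test). The ratio in pair 1 was then still 3.14 times that in pair 2 (1.90 to 5.19). Relative to reads of hsa-miR-16-5p, a miRNA present in most cells, the ratios were 4.53 (2.32 to 8.94) in pair 1 and 0.311 (0.282 to 0.343) in pair 2. The share of hsa-miR-16-5p itself fell in pair 1 and rose in pair 2, which moves these ratios apart.

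miR-126-5p fell with its partner strand in pair 2, where the ratio was 0.530 (0.460 to 0.611, adjusted p = 4.03e-19, Fisher's exact test). Relative to hsa-miR-16-5p the ratio in pair 2 was 0.337 (0.291 to 0.388). In pair 1, 2 reads against 2 gave a ratio of 1.18 with an interval from 0.0855 to 16.3, which covers both a large rise and a large fall.

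miR-335-5p was the one miRNA of the 5 with a called rise in pair 2, with a ratio of 1.495 (1.14 to 1.97, adjusted p = 0.0208, Fisher's exact test). Relative to hsa-miR-16-5p its ratio was 0.949 (0.721 to 1.25), so the direction depended on the scaling. Its partner strand miR-335-3p had almost the same ratio on library totals, 1.48 (0.713 to 3.10, adjusted p = 0.669, Fisher's exact test), and 0.940 relative to hsa-miR-16-5p. In pair 1 these strands had 0 to 1 reads and gave no ratio.

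miR-31-5p was lower in 231 -G EV in both pairs, but by 1 read against 4 and 1 against 3. The ratios were 0.295 (0.00599 to 2.98) and 0.439 (0.00836 to 5.47), and both intervals included 1.

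**Figure D2:**
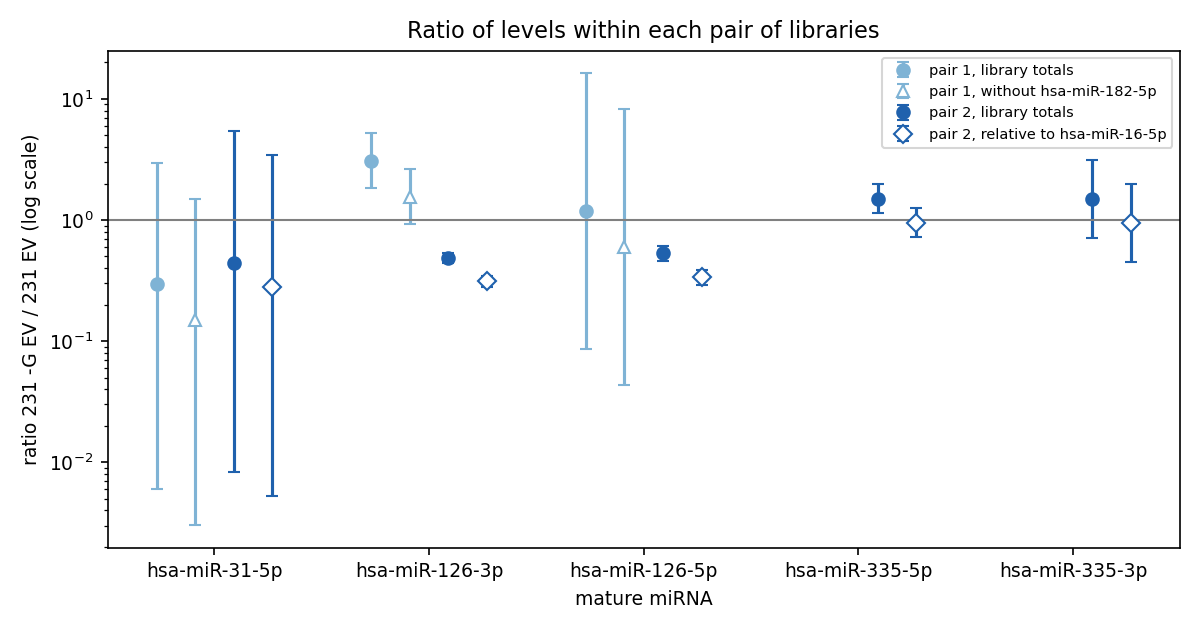
Ratio of 231 -G EV over 231 EV within each pair (log axis, grey line at 1) with 95% exact conditional intervals as bars: filled circles use library totals, open triangles exclude hsa-miR-182-5p from the totals of pair 1, and open diamonds are relative to hsa-miR-16-5p in pair 2. miR-126-3p lies above 1 in pair 1 (3.06) and below 1 in pair 2 (0.490), and the points of miR-335-5p in pair 2 lie at 1.495 and 0.949.

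By a fold of more than 1.5 in the same direction in both pairs, formed from CPM plus 1, 0 of the 5 were higher and 1, miR-31-5p, was lower. Of the 539 shared between the tables, 39 (7.24%) passed upwards and 36 (6.68%) downwards. The balance moved with the scaling, since TMM gave 28 (5.19%) and 54 (10%), and totals that exclude hsa-miR-182-5p gave 29 (5.38%) and 49 (9.09%). With either, 2 of the 5 passed downwards, miR-31-5p and miR-126-5p. The folds of miR-31-5p were 0.298 and 0.478, and it no longer passed when 10 CPM were added in place of 1. In pair 2 the fold of miR-335-5p was 1.49, just under the threshold.

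The split of reads between the 2 arms of a hairpin does not depend on the library total. No difference between the 2 libraries of a pair was called for miR-126 in either pair or for miR-335 in pair 2. In miR-126 the 3p arm took 91.7% (95% Wilson interval 74.2 to 97.7) of 24 reads in 231 EV and 96.6% (88.5 to 99.1) of 59 reads in 231 -G EV of pair 1. In pair 2 it took 69.6% (67.7 to 71.5) of 2272 reads and 67.9% (64.8 to 71.0) of 867 reads. Thus the 3p arm led in all 4 libraries, and by more in pair 1. The difference between the 2 libraries of a pair, 231 -G EV minus 231 EV, was 4.94 percentage points (-5.19 to 22.6, adjusted p = 1, Fisher's exact test) in pair 1. In pair 2 it was -1.70 points (-5.38 to 1.89, adjusted p = 0.774, Fisher's exact test). Over all hairpins with both arms read, 0 of 64 (0%) were called in pair 1 and 17 of 136 (12.5%) in pair 2.

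miR-335 had the opposite bias. Its 5p arm took 86.6% (79.3 to 91.6) of 119 reads in 231 EV and 86.7% (79.9 to 91.4) of 135 reads in 231 -G EV of pair 2. The share of the 3p arm differed by -0.11 points (-8.80 to 8.29, adjusted p = 1, Fisher's exact test). With 0 and 1 reads of this hairpin in pair 1, no split could be given there.

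**Figure D3:**
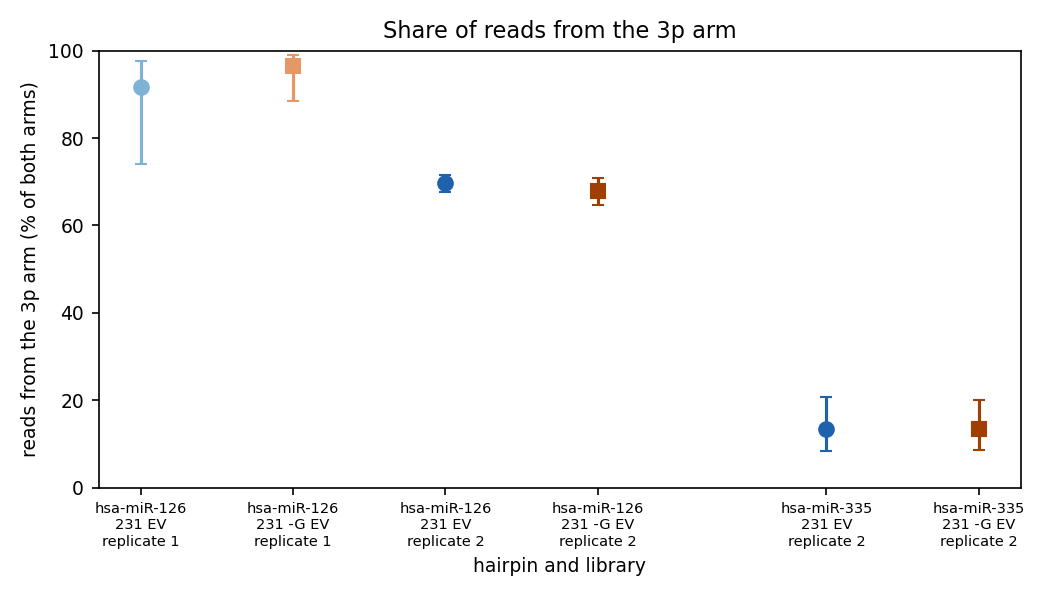
Share of a hairpin's reads that came from its 3p arm (percent of both arms, axis from 0 to 100) in each library with at least 20 reads of the hairpin, with 95% Wilson intervals as bars; circles are 231 EV and squares 231 -G EV. For miR-126 the share lies at 91.7% and 96.6% in replicate 1 and at 69.6% and 67.9% in replicate 2, and for miR-335 at 13.5% and 13.3%.

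Between the replicate numbers, that is, the preparations and anything else that went with them, 1 of the 5 miRNAs was called. miR-126-5p was lower in the libraries numbered 1, with a log2 difference, replicate 1 over replicate 2, of -4.25 (SE 1.23, adjusted p = 0.0070, edgeR quasi-likelihood test). Over all 384 miRNAs, 37 (9.64%) were called lower and 29 higher. miR-335-5p had a similar difference that was not called, -4.27 (SE 1.66, adjusted p = 0.058, edgeR), but was called with TMM scaling (adjusted p = 0.0100, edgeR) with totals that exclude hsa-miR-182-5p (adjusted p = 0.0317, edgeR) and with no medium term (adjusted p = 0.0057, edgeR). miR-126-3p had -1.21 (SE 0.99, adjusted p = 0.508, edgeR) and miR-31-5p had 3.69 (SE 2.19, adjusted p = 0.294, edgeR). miR-31-5p was called when tested among miRNAs with reads in all 4 libraries (adjusted p = 0.00104, edgeR) and with no medium term (adjusted p = 0.0234, edgeR). With that term and 231 -G EV of replicate 1 dropped, its log2 difference was 4.33. The filter on all 4 libraries keeps a rarely read miRNA only if it was read in replicate 1. There 1 read was worth 54.4 and 64.1 CPM, against 4.45 and 5.85 CPM in replicate 2. A miRNA with a few reads in every library therefore appears higher in replicate 1, and this call cannot decide whether its level differed. miR-335-3p, with 0 reads in both libraries of replicate 1, was not called (adjusted p = 0.448, edgeR). The median log2 difference was -4.25 over the 5 and -0.75 over all 384, and the latter became -0.93 with TMM scaling and -0.25 with totals that exclude hsa-miR-182-5p. The median over the 5 counts miR-335-3p at -6.24 (SE 4.72), which entered the test through its reads in replicate 2 alone. The call for miR-126-5p was lost with limma (adjusted p = 0.0568), which called 0 of 384 although 161 had an unadjusted p under 0.05, and when both the 231 EV library of replicate 2 and the medium term were dropped (adjusted p = 0.110, edgeR).

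Between libraries of the same medium, the arms of miR-126 were compared separately. In 231 EV, miR-126-3p was 5.88 times (95% exact interval 3.87 to 9.41) and miR-126-5p 28.2 times (7.78 to 233) as high in replicate 2 as in replicate 1. In 231 -G EV the corresponding ratios were 0.943 (0.718 to 1.26) and 12.7 (3.48 to 105). With hsa-miR-182-5p excluded from the totals they were 2.89 (1.90 to 4.62) and 13.9 (3.82 to 115) in 231 EV, and 0.920 (0.700 to 1.23) and 12.4 (3.39 to 103) in 231 -G EV. The 3p share was 22.0 points higher in replicate 1 of 231 EV (4.42 to 28.4, adjusted p = 0.150, Fisher's exact test) and 28.7 points higher in replicate 1 of 231 -G EV (20.0 to 32.7, adjusted p = 6.77e-06, Fisher's exact test). Such differences were called for 5 of 76 hairpins (6.58%) in 231 EV and 14 of 67 (20.9%) in 231 -G EV. The comparison of arm splits and the exclusion here were chosen after the values were seen.

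miR-31-5p ran the other way, with 16.3 times (2.76 to 111) the level in replicate 1 of 231 EV as in replicate 2, on 4 reads against 3, and 33.2 times (5.61 to 226) with hsa-miR-182-5p excluded from the totals. In 231 -G EV the ratio was 10.96 on 1 read each, with an interval of 0.140 to 860. miR-335-5p was 10.7 times (1.88 to 425) as high in replicate 2 as in replicate 1 of 231 -G EV.

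miR-126 is also carried by blood vessels and serum, and miRNAs of blood moved with it in pair 2. The 5 blood and serum markers summed here were miR-451a, miR-486-5p and miR-144-3p of red cells, miR-223-3p of myeloid cells and miR-150-5p of lymphocytes. In pair 1 they took 20.1% of the reads of 231 EV and 42.8% of those of 231 -G EV, and in pair 2 they took 0.493% and 0.188%. All 5 had reads in every library except miR-150-5p, which had 0 in 231 EV of pair 1. Between the replicate numbers, 2 of the 5 were called higher in replicate 1, miR-451a (log2 8.59) and miR-486-5p (4.80), and 1, miR-223-3p, lower (-3.35, edgeR). The shares over all miRNAs were 7.55% higher and 9.64% lower. In the same fit miR-126-3p had -1.21 and miR-126-5p -4.25. In pair 2, 5 of 5 were called lower in 231 -G EV, with ratios from 0.303 (miR-451a) to 0.529 (miR-150-5p). In pair 1, 2 of 5 were called higher, miR-451a at 2.10 (2.01 to 2.19) and miR-486-5p at 3.62 (2.87 to 4.61). When the totals excluded hsa-miR-182-5p these ratios were 1.06 (1.01 to 1.10) and 1.83 (1.45 to 2.32), both still called, and the summed share of the 5 markers was 40.9% in 231 EV and 44.0% in 231 -G EV of pair 1. The liver miRNA miR-122-5p was called higher in pair 1, with a ratio of 3.33 (1.88 to 6.18) that was no longer called with that exclusion (1.68, 0.948 to 3.11), and lower in pair 2, with 0.398 (0.310 to 0.505). miR-143-3p of fibroblasts and smooth muscle was called lower in both pairs, with 0.554 (0.468 to 0.654) and 0.483 (0.403 to 0.576). The other miRNA of that list, miR-145-5p, was called in neither pair. Its ratios were 4.72 (0.467 to 232) in pair 1, on 1 read in 231 EV and 4 in 231 -G EV, and 0.598 (0.253 to 1.32) in pair 2. Of the 5 markers of MDA-MB-231, 2 were called higher in pair 1, which became 0 higher and 1 lower with that exclusion, and in pair 2, 3 were called higher and 2 lower. Of the 5 epithelial markers, 2 were called higher in pair 1, with and without that exclusion, and 0 in pair 2.

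Relative to the summed reads of the 5 markers, miR-126-3p had a ratio of 1.43 (0.859 to 2.46) in pair 1 and 1.29 (1.10 to 1.51) in pair 2, and miR-126-5p had 1.39 (1.15 to 1.69) in pair 2. Without miR-451a among the markers, miR-126-3p had 0.918 (0.524 to 1.65) and 1.20 (1.01 to 1.43). On both scales the interval of pair 1 included 1 and that of pair 2 lay just above it, where on library totals the ratio of pair 2 was below 1. miR-335-5p had 3.92 (2.90 to 5.31) in pair 2. This scale was chosen after the values were seen, and the part of RNA from blood or serum in the result was not tested.

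**Figure D4:**
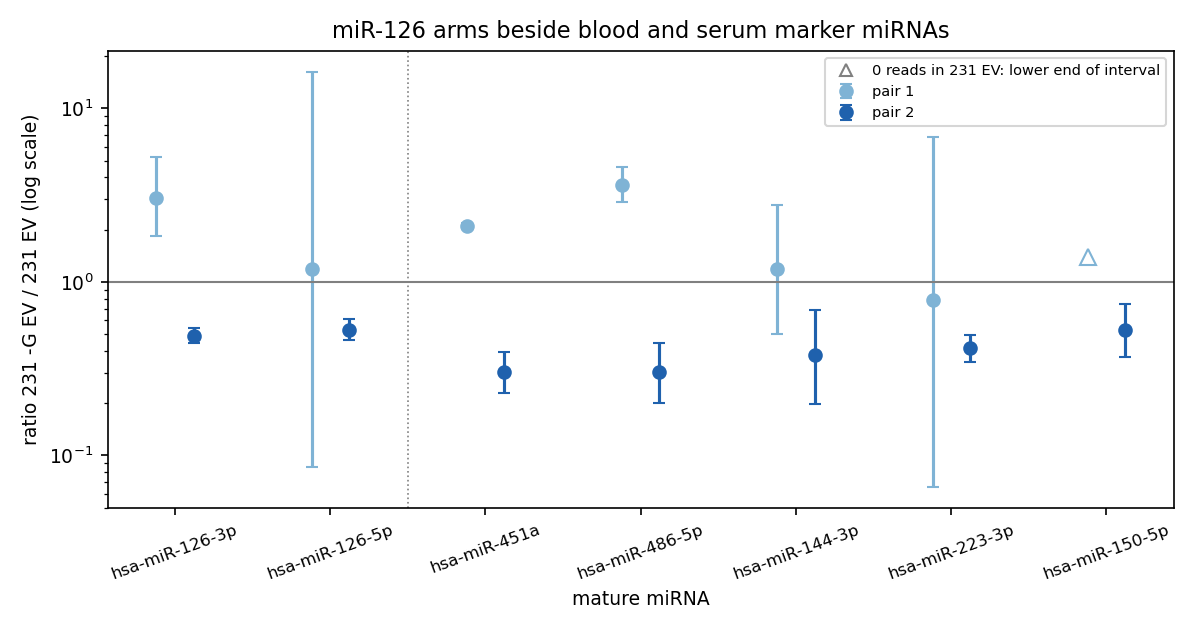
Ratio of 231 -G EV over 231 EV (log axis, grey line at 1) for both arms of miR-126, left of the dotted line, and 5 blood and serum marker miRNAs, with 95% exact conditional intervals; light points are pair 1 and dark points pair 2, and the open triangle is the lower end of an interval where 231 EV had 0 reads. All 7 lie below 1 in pair 2, and in pair 1 the intervals of miR-126-3p (3.06), miR-451a (2.10) and miR-486-5p (3.62) and the lower end for miR-150-5p (1.39) lie above 1, while those of the other 3 include 1.

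Of 12 other miRNAs described as suppressors of breast cancer metastasis, 0 of the 11 tested were called between the media by edgeR, as were 0 of 9 tested of 11 described as promoters. Between the replicate numbers 1 of the 11 suppressors, miR-30a-5p, was called lower in replicate 1, and of the 9 promoters tested 3 were called higher (miR-10b-5p, miR-9-5p and miR-182-5p) and 3 lower (miR-21-5p, miR-103a-3p and miR-107), against 9.64% of all miRNAs lower and 7.55% higher. The median log2 difference between the media was 0.32 over the suppressors and 0.02 over the promoters, against 0.20 over all.

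Within pair 1, 4 of 11 other suppressors were called higher (2 when the totals excluded hsa-miR-182-5p) and 0 lower, against 7.91% of all miRNAs higher (2.69% with that exclusion) and 1.79% lower (5.08%). Within pair 2, 2 of 11 were called higher and 1 lower, against 9.87% and 8.74% of all. On library totals 2 were called higher in both pairs, but relative to hsa-miR-16-5p their ratios in pair 2 were 0.989 (0.897 to 1.09) for miR-148a-3p and 0.860 (0.817 to 0.907) for miR-30a-5p, a scale applied here after the values were seen. miR-148a-3p, described as a suppressor of invasion, had 125 and 1140 reads in pair 1 and 797 and 944 in pair 2, with ratios of 10.8 (8.94 to 13.1) and 1.56 (1.42 to 1.72), and the first was 5.42 (4.50 to 6.57) when the totals excluded hsa-miR-182-5p. miR-30a-5p had 29 and 59 reads in pair 1 and 3374 and 3475 in pair 2, with ratios of 2.40 (1.51 to 3.88) and 1.36 (1.29 to 1.42), and its call in pair 1 was lost when the totals excluded hsa-miR-182-5p. miR-7-5p, which represses EGFR, was called higher in pair 1 alone, with a ratio of 2.21 (1.498 to 3.32), and this too was lost with that exclusion. miR-205-5p, an epithelial miRNA, was called lower in pair 2 with 109 reads against 3.

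miR-206, a muscle miRNA described as lost together with miR-335 and miR-126, had 98 reads in 231 -G EV of pair 1 and 0 in the other 3 libraries. With reads in 1 library it did not enter the edgeR test, which required reads in at least 2. When every miRNA with a read in any library was tested, it was the 1 call of 476 between the media (0 of 384 with the main filter).

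Of the promoters, 3 of 8 were called higher and 1, miR-182-5p, lower in pair 1. With hsa-miR-182-5p excluded from the totals, that miRNA was not tested, 0 were higher and 1, miR-21-5p, was lower. In pair 2, 1 of 9 was called higher and 4 lower. The shares over all miRNAs are those given above for the suppressors. miR-10b-5p, which represses HOXD10, had 24 and 60 reads in pair 1 and 59 and 15 in pair 2. Like miR-126-3p it was called higher in pair 1, with a ratio of 2.95 (1.81 to 4.95), and lower in pair 2, with 0.335 (0.176 to 0.597), and the call in pair 1 was lost when the totals excluded hsa-miR-182-5p. miR-21-5p, the most abundant promoter in pair 2, had 68029 and 39805 reads there, a ratio of 0.770 (0.761 to 0.780), and in pair 1 its ratio of 1.42 (1.23 to 1.64) became 0.718 (0.623 to 0.829) with that exclusion. miR-103a-3p, which targets DICER1, had a ratio of 0.616 (0.584 to 0.650) in pair 2. miR-107, a close relative of miR-103a-3p with which the counting could have split reads, had 559 and 612 reads and a ratio of 1.44 (1.28 to 1.62) in pair 2, which was 0.915 (0.812 to 1.03) relative to hsa-miR-16-5p.

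The pattern of miR-126-3p over the 4 libraries was compared with that of 72 other miRNAs with at least 10 reads in 1 library of each pair, by the distance between mean-centred values of log2(CPM + 10). The nearest were miR-106b-3p (0.48), miR-26a-5p (0.57) and miR-199b-3p (0.72), whose reads cannot be told from those of the identical miR-199a-3p, against a median distance of 2.03. In pair 1 miR-106b-3p had only 5 and 12 reads, and miR-199b-3p only 6 and 17. Like miR-126-3p, miR-26a-5p had its lowest level in 231 EV of pair 1 and its highest in 231 EV of pair 2, with 3044 CPM (231 EV) and 6604 CPM (231 -G EV) in pair 1, and 10240 and 6764 CPM in pair 2. The likeness rests on 4 libraries, and the other 4 members had too few reads in pair 1 to be compared in this way.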

How the data were processed

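Small RNA libraries of EVs from MDA-MB-231 cells were analysed, 2 from 231 EV and 2 from 231 -G EV, grouped by their labels. The authors deposited whole-number read counts per mature miRNA, beside CPM (replicate 1) and TPM (replicate 2), which both equalled the count over the library total times 1000000, with no length term. Names such as hg38, cutadapt, Bowtie, Bowtie2, StringTie and edgeR stand in the submitters' processing notes without versions, and the study describes trimming, removal of other small RNAs and matching to miRBase. The file holds 1 table per replicate number, and a miRNA absent from a table was treated as unknown there.

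Counts were tested with edgeR 4.0.16 (R 4.3.3) on the 384 miRNAs shared between the tables with reads in 2 or more libraries. The fit used the deposited library totals and took the replicate number as a block. The pairing comes from the labels, which tie the number to the library preparation, and libraries with the same number deviated together from their groups (correlation 0.586 across these miRNAs). Dropping the block raised the common dispersion from 0.301 to 1.60. The replicate term was tested in the same fit. Each SE given for edgeR is the absolute log2 difference over the square root of the F statistic of its test, and is therefore approximate. Two-sided p-values were adjusted with the Benjamini-Hochberg method and measure the spread between these libraries, which may be technical. In the fit with both terms, this spread is how far the difference between the media disagrees between the 2 preparations, with information shared across miRNAs. Within a pair, reads were compared by Fisher's exact test (SciPy 1.17.1), with exact conditional intervals of ratios and Wilson intervals of shares, both at 95%. Arm splits used Fisher's exact test with Newcombe intervals. Without molecular identifiers PCR reads cannot be taken as independent molecules, and all intervals and limits cover counting error only. Scripts were tested on simulated data.

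The alternatives were TMM scaling, totals without hsa-miR-182-5p, scaling to hsa-miR-16-5p, DESeq2 1.42.0, limma 3.58.1, other filters, pseudocounts and thresholds, no block, and each library or pair left out. Scaling to blood and serum markers, and arm splits and totals without hsa-miR-182-5p across the replicate numbers were added after the data were seen. The members, the lists of suppressors, promoters and markers, and the tests were chosen with earlier results of these data known. Named are the 5 members, the scaling miRNAs, list members that passed a test or had the most reads, and the 3 miRNAs nearest in pattern. Sequences and positions are from RefSeq (GRCh38.p14), where 1423 of the 1619 listed names matched, and host transcripts are from a gene annotation of the same build.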

Additional observations from a re-analysis of the deposited data

Results flagged for a closer look

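The ratio of hsa-miR-126-3p, 231 -G EV over 231 EV, differed between the pairs of libraries. It was 3.06 in pair 1 and 0.490 in pair 2, and the first was 6.24 times the second (95% interval 3.78 to 10.3, counting error only). When the totals excluded hsa-miR-182-5p the difference was 3.14 times (1.90 to 5.19), and relative to hsa-miR-16-5p it was 14.6 times (7.73 to 27.5). For hsa-miR-126-5p, with 2 reads in each library of pair 1, the corresponding ratio of ratios was 2.22 (0.312 to 15.9), which includes 1. Each pair held 1 library per medium, so the spread between cultures within a preparation was not measured. The preparation and the culture cannot be told apart. The summed share of the 5 blood and serum markers was 20.1% in 231 EV and 42.8% in 231 -G EV of pair 1, and 0.493% and 0.188% in the same order in pair 2. Between the media these differences ran in the same directions as those of hsa-miR-126-3p. When the totals excluded hsa-miR-182-5p, the shares of pair 1 were 40.9% and 44.0%. Between the replicate numbers, miR-451a and miR-486-5p were called higher in replicate 1 and miR-223-3p lower (edgeR), and hsa-miR-126-3p was not called (log2 -1.21). The part of the markers in the result was not tested.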

How the results depend on the processing

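Depth limited pair 1, where 0 reads allow up to 163 and 192 CPM and 4 of the 5 miRNAs had at most 4 reads. Between the media, 1 miRNA was called, in place of 0, when the totals excluded hsa-miR-182-5p (hsa-miR-449c-5p) and with any miRNA above 0 tested (hsa-miR-206). With no replicate block the count was 0, as it was with each library left out in turn. All adjusted p of the 5 miRNAs were 0.915 or more over these fits. With limma the log2 difference of miR-335-5p between the media was 3.30 (SE 1.945), against 0.88 in the main fit. The log2 differences of the 5 miRNAs between the media changed sign as follows. That of miR-126-3p became -0.24 with TMM scaling, -0.26 without hsa-miR-182-5p, -0.063 with DESeq2 and -0.22 with no replicate block. Leaving out 1 pair, it ran from -1.03 to 1.61 and that of miR-126-5p from -0.92 to 0.24. Leaving out 1 library, with no replicate block, that of miR-126-3p ran from -0.99 to 1.57 (-0.99, -0.26 and -0.18 below 0), that of miR-126-5p from -3.63 to 3.02 (0.019 and 3.02 above 0), that of miR-31-5p from -3.88 to 0.29, that of miR-335-5p from -1.90 to 7.74 (-1.90 and -0.23 below 0) and that of miR-335-3p from -5.06 to 5.25 (-5.06 and -0.067 below 0).

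Between the replicate numbers, the 66 calls became 0 with limma and 120 with no medium term, and with no medium term and 1 library left out they ran from 26 to 90 (27 and 26 without 231 EV and 231 -G EV of replicate 2). The call for miR-126-5p was lost with limma and with both 231 EV replicate 2 and the medium term dropped. miR-31-5p was called with miRNAs above 0 in all 4 libraries (adjusted p = 0.00104, edgeR), a filter that selects on reads in the shallow libraries of replicate 1. It was also called with no medium term (adjusted p = 0.0234, edgeR). With that term and 231 -G EV replicate 1 dropped, its log2 difference was 4.33. miR-335-5p was called with TMM scaling, without hsa-miR-182-5p, with no medium term (0.0057) and with that term and 231 -G EV replicate 1 dropped (0.0154).

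Past 1.5-fold in both pairs, the 39 higher miRNAs became 15 with 100 CPM added, 24 at a threshold of 2, 24 scaled to hsa-miR-16-5p and 12 of 154 above 0 in all libraries, and 117 to 182 passed in 1 pair alone. The 36 lower became 18 with 10 CPM added, 4 with 100 CPM and 7 above 0 in all libraries, and 101 to 156 passed in 1 pair alone. Of the 5 miRNAs, 0 were lower with 10 or 100 CPM added and 2 with TMM scaling or without hsa-miR-182-5p (miR-31-5p and miR-126-5p), where 54 and 49 of all 539 were lower. In 1 pair alone 1 to 3 were lower and 0 to 2 higher.

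Ratios that crossed 1 were those of miR-126-5p in pair 1 without hsa-miR-182-5p (0.594) and, relative to hsa-miR-16-5p in pair 2, of miR-335-5p (0.949) and miR-335-3p (0.940). Relative to the 5 blood and serum markers, and to these without miR-451a, the ratio of miR-126-5p in pair 1 became 0.552 and 0.354, that of miR-31-5p in pair 2 became 1.15 and 1.07, that of miR-126-3p in pair 2 became 1.29 and 1.20, and that of miR-126-5p in pair 2 became 1.39 and 1.30. That of miR-126-3p in pair 1 became 0.918 without miR-451a. With at least 20 reads per hairpin and library, arm splits called between the replicate numbers fell from 5 to 2 in 231 EV and from 14 to 6 in 231 -G EV. Except where the construction shows it, the cause was not tested. Of 40 levels under other totals, 39 stayed within their intervals, and miR-126-3p in 231 EV replicate 1 rose to 2440 CPM without hsa-miR-182-5p.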
